A study of Sus scrofa with 11 samples.

Results

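The secreted frizzled-related proteins are extracellular Wnt antagonists, and their 5 genes, SFRP1, SFRP2, SFRP4, SFRP5 and FRZB, were followed in porcine coronary arteries kept in culture. They were taken by symbol from the 25880 genes of the deposited counts. Each symbol matched 1 Ensembl gene, and all 5 were among the 15348 genes kept by the filter on low counts. The family was chosen by its measured levels in culture against native vessels, where SFRP2 stood higher and SFRP4 lower, so the differences from native given here are a description and carry no test. Differences between cultured groups were tested. The family was chosen with earlier results of these data known, so these tests are not independent of the choice.

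Wnt ligands are secreted lipid-modified proteins that bind Frizzled receptors and LRP5 or LRP6 co-receptors, which stabilises beta-catenin and switches on target genes, or signals through receptors such as ROR1 and ROR2 without beta-catenin. SFRPs carry a cysteine-rich domain like that of Frizzled receptors and a netrin-like domain, and they bind Wnts outside the cell. By sequence SFRP1, SFRP2 and SFRP5 form a subgroup, and SFRP4 and FRZB (also called sFRP3) form another. SFRP2 also acts on procollagen C-proteinases of the BMP1 family.

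The study built a bioreactor model of stented arteries, and its labels give 5 groups of flash-frozen pig coronary artery with 11 libraries in all. Native vessels, which had no culture, gave 2 libraries. Vessels with a stent were held without flow (stented static, 2 libraries) or under the stronger flow mark (stented high-flow, 3 libraries). Vessels without a stent had the stronger flow mark (high-flow, 2 libraries) or the weaker one (low-flow, 2 libraries). The sources used here name no strain, age, sex or number of animals, so p-values measure only how far these libraries spread, and that spread may be technical. The label number 25 occurs on both native replicate 2 and stented high-flow replicate 1. A d suffix stands at 3 for both stented static libraries and 7 for stented high-flow replicate 3, with no meaning stated.

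Library totals ran from 13496636 to 26785124 counts. Levels are given as CPM, counts scaled to library size with TMM factors. Group values are mean ± SD, with n = 3 in stented high-flow and n = 2 elsewhere, and 3 counts correspond to 0.105 to 0.215 CPM in a library. The defining artery markers were present in every library: no library was at 0 counts for any of 8 contractile smooth muscle or 7 endothelial markers. Summed contractile markers were at 30778 to 38067 CPM in native and 444 to 7570 CPM in cultured libraries. The Y-linked genes EIF1AY and KDM5D together had 0 or 1 counts in the stented static and low-flow libraries and 450 to 884 in the other 7. Presence of Y-linked transcripts and flow therefore cannot be told apart in the comparisons of stented high-flow with stented static and of low-flow with high-flow. In the comparisons of stented static and of low-flow with native, they cannot be told apart from culture. In whole-vessel RNA, fewer cells of a type and less RNA per cell cannot be told apart either.

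**Figure D1:**
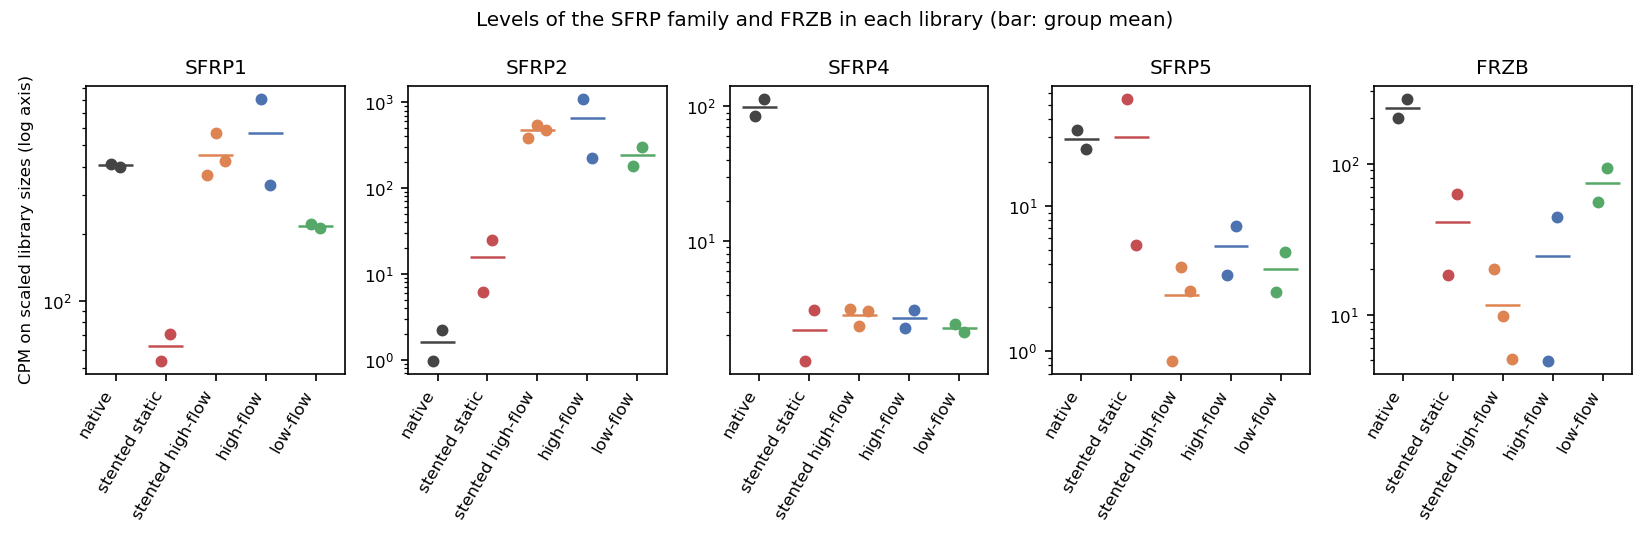
CPM of each gene in each of the 11 libraries (points, log axis) with the group mean (bar), by group. SFRP2 is above both native libraries in all 9 cultured libraries, SFRP4 and FRZB are below both in all 9, and SFRP1 and SFRP5 overlap with native.

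SFRP2 (ENSSSCG00000009004, chromosome 8, 75337311 to 75345926 in Sscrofa11.1) went from a low level in native vessels to a high level with flow. It had 15 and 39 counts in native replicates 1 and 2, which is 0.977 and 2.24 CPM. In stented static vessels it was at 6.16 and 24.9 CPM, and in low-flow vessels at 183 and 303 CPM. Stented high-flow libraries had 380.7, 547 and 477 CPM, and high-flow libraries 1088 and 226 CPM. Every cultured library was above both native ones, and every library with flow was above both stented static ones. High-flow replicate 1 was the highest of all 11, and high-flow replicate 2 was below all 3 stented high-flow libraries.

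Against native, the log2 fold change of SFRP2 was 3.25 ± 0.83 (standard error) in stented static, 7.22 ± 0.96 in low-flow, 8.66 ± 1.01 in high-flow and 8.17 ± 0.98 in stented high-flow. Among 15348 genes ordered from the largest increase, these were ranks 288, 31, 12 and 20. The stented static value rested on replicate 2: without it the log2 fold change was 1.92. Within the pair of libraries that share the label number 25, SFRP2 was at 2.24 CPM in native and 380.7 CPM in stented high-flow. In order of mean level the groups were high-flow, stented high-flow, low-flow, stented static and native. The libraries of high-flow and stented high-flow overlapped, and those of the other neighbours in this order did not.

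SFRP1 (ENSSSCG00000025822, chromosome 17, 10436414 to 10489773), of the same subgroup, was already abundant in native artery. It was at 412 and 399 CPM in native, 53.9 and 70.7 CPM in stented static and 222 and 211 CPM in low-flow libraries. Stented high-flow libraries had 368, 567 and 425 CPM, and high-flow libraries 807 and 332 CPM. The low values were those without flow, below all other libraries, while both groups under strong flow overlapped with native. Its log2 fold change against native was -2.70 ± 0.41 in stented static, -0.91 ± 0.39 in low-flow, 0.49 ± 0.39 in high-flow and 0.16 ± 0.36 in stented high-flow. The high-flow value changed sign to -0.29 without high-flow replicate 1.

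SFRP5 (ENSSSCG00000010529, chromosome 14, 109120382 to 109125655), known as a protein secreted by fat cells, was at 33.2 and 24.7 CPM in native vessels. It was at 54.6 CPM in stented static replicate 1 but 5.41 CPM in replicate 2. The other cultured libraries were lower, at 0.861, 3.81 and 2.58 CPM in stented high-flow, 3.36 and 7.24 CPM in high-flow and 2.57 and 4.82 CPM in low-flow. Stented static replicate 1 was thus the only cultured library within or above the native range. Against native the log2 fold change was 0.05 ± 0.85 in stented static, where it moved to -2.40 without replicate 1 and 0.92 without replicate 2. It was -3.56 ± 0.82 in stented high-flow, -2.45 ± 0.91 in high-flow and -2.96 ± 0.92 in low-flow.

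Summed adipocyte markers stood high in the same 3 libraries. The 7 matched markers summed to 2054 and 1302 CPM in native replicates 1 and 2 and to 2192 CPM in stented static replicate 1. They summed to 137 CPM in stented static replicate 2, 34.0 to 72.1 CPM in stented high-flow, 47.9 to 186 CPM in high-flow and 142 to 231.96 CPM in low-flow. Adiponectin, ADIPOQ, a hormone made by fat cells, had 19355 counts in stented static replicate 1 and 14 in replicate 2, and leptin, LEP, had 243 and 0. LEP did not follow the sum everywhere, with 203 counts in high-flow replicate 2 against 70 and 65 in native. Nor did CIDEC, at 67.2 and 46.5 CPM in native, 58.0 CPM in stented static replicate 2 and 65.8 CPM in low-flow replicate 2. ADIPOQ, LIPE, PLIN4, FABP4 and PLIN1 were each higher in those 3 libraries than in any other. The part of fat tissue in the SFRP5 values was not tested. Endothelial markers summed to 1071 CPM in stented static replicate 1 and 407 CPM in replicate 2.

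**Figure D2:**
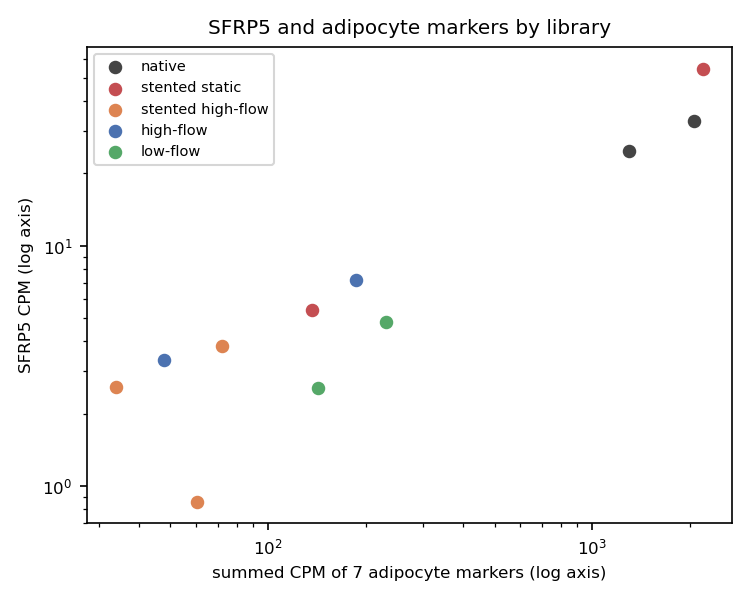
SFRP5 CPM against the summed CPM of 7 adipocyte markers in each library, both on log axes, coloured by group. The 2 native libraries and stented static replicate 1 lie at 1302 to 2192 summed CPM and 24.7 to 54.6 SFRP5 CPM, and the other 8 libraries at 34.0 to 231.96 and 0.861 to 7.24 CPM.

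SFRP4 (ENSSSCG00000035299, chromosome 9, 108404314 to 108414335) was lower in culture by about the same amount whatever the stent or flow. It was at 85.5 and 113 CPM in native libraries, and all 9 cultured libraries lay between 1.30 and 3.16 CPM. Stented static libraries had 1.30 and 3.10 CPM, stented high-flow 3.16, 2.36 and 3.04 CPM, high-flow 2.29 and 3.08 CPM and low-flow 2.44 and 2.13 CPM. The cultured counts were 33 to 65 per library, so these low levels are above the limit set by depth. The cultured groups overlapped with each neighbour in order of mean level, and none overlapped with native. Log2 fold changes against native were -5.52 ± 0.46 in stented static, -5.44 ± 0.45 in low-flow, -5.21 ± 0.45 in high-flow and -5.12 ± 0.38 in stented high-flow. With each library left out in turn these values lay between -6.25 and -4.86.

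FRZB (ENSSSCG00000016018, chromosome 15, 88332856 to 88377275), the nearest relative of SFRP4, was also lower in every cultured library but by amounts that varied. It was at 199 and 266.7 CPM in native, 18.2 and 63.3 CPM in stented static and 55.5 and 92.9 CPM in low-flow libraries. Stented high-flow libraries had 20.02, 9.87 and 5.11 CPM, and high-flow libraries were far apart at 4.99 and 44.3 CPM. Only native stood clear of its neighbour in order of mean level, since low-flow, stented static, high-flow and stented high-flow overlapped in turn. Log2 fold changes against native were -1.65 ± 0.89 in low-flow, -2.52 ± 0.91 in stented static, -3.24 ± 0.94 in high-flow and -4.33 ± 0.84 in stented high-flow. The high-flow value ranged from -5.50 without high-flow replicate 2 to -2.39 without replicate 1.

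Contractile smooth muscle markers went with FRZB in some groups and not in others. Their summed CPM was 444 in stented static replicate 1 and 2410 in replicate 2, where FRZB was at 18.2 and 63.3 CPM. It was 1506 and 5062 in high-flow replicates 1 and 2, where FRZB was at 4.99 and 44.3 CPM. Stented high-flow replicates 1, 2 and 3 had 6040, 3981 and 4393 summed CPM with FRZB at 20.02, 9.87 and 5.11 CPM. Low-flow replicates had 7503 and 7570 with FRZB at 55.5 and 92.9 CPM. The part of smooth muscle in the FRZB values was not tested. Adventitial fibroblast markers, of which 11 matched, summed to 4829 to 5108 CPM in native and 2463 to 7249 CPM in cultured libraries. Within that sum DCN was at 1645 to 1693 CPM in native and 984 to 3183 CPM in culture, and LUM at 231.75 to 429 and 221 to 2883 CPM. The mean log2 CPM of the 11 markers was 8.02 to 8.03 in native and 5.43 to 6.79 in culture, with no overlap. PI16, another of these markers, was at 266 to 294 CPM in native and 2.29 to 12.8 CPM in culture, while PDGFRA was at 23.7 to 42.1 and 64.0 to 442 CPM. The part of fibroblasts in the SFRP2 and SFRP4 values was not tested.

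**Figure D3:**
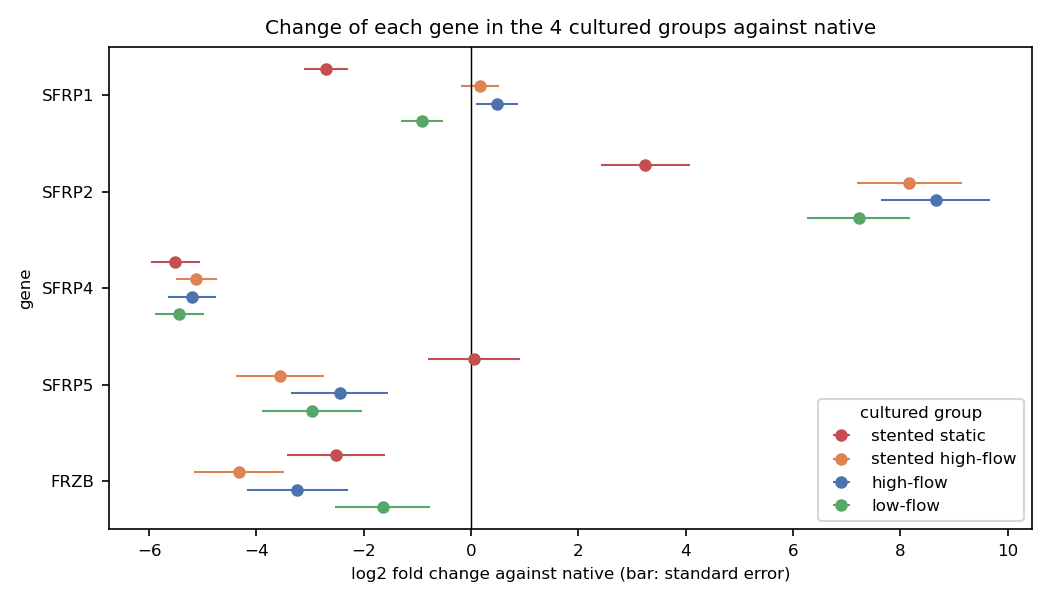
Log2 fold change of each gene against native in the 4 cultured groups (points) with its standard error (bars). SFRP2 lies between 3.25 and 8.66, SFRP4 between -5.52 and -5.12, and stented static stands apart from the groups with flow for SFRP1 and SFRP2. It stands apart for SFRP5 too, but there its value was -2.40 without stented static replicate 1.

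Of the 5 genes, 1 had all 9 cultured libraries above both native libraries and 2 had all 9 below. Over all genes tested, 14.1% were above and 16.9% below in this way. The 4 comparisons with native share the same 2 native libraries, so their values are not independent of each other. Lists of changed genes deposited by the authors hold 553 genes for stented static, 928 for low-flow, 1129 for high-flow and 1117 for stented high-flow. They rest on the same libraries, and the family was chosen by its levels in culture against native. Being listed is therefore no independent test of these genes. In the authors' deposited table for stented high-flow, SFRP2 is listed at 8.17, SFRP4 at -5.13, FRZB at -4.34 and SFRP5 at -3.57. The authors' deposited table for high-flow lists SFRP2, SFRP4 and SFRP5 at 8.67, -5.21 and -2.44, and that for low-flow lists them at 7.23, -5.44 and -2.96. The authors' deposited table for stented static lists SFRP2 at 3.25, SFRP4 at -5.52 and SFRP1 at -2.71.

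The comparison of stented vessels with and without flow asked how flow bears on a stented artery in culture. SFRP1 and SFRP2 were higher and SFRP5 lower under flow, so 3 of the 5 genes were called, against 2.85% of all genes tested. The SFRP2 rise in culture, which was larger with flow, was part of the choice of family. This count is therefore not independent of that choice. The label suffix d, at 3 in both stented static libraries and at 7 in 1 of the stented high-flow libraries, has no stated meaning, and whatever it marks cannot be told apart from flow here. SFRP2 rose from 15.5 ± 13.2 CPM in stented static to 468 ± 83.7 CPM in stented high-flow, a log2 fold change of 4.92 ± 0.82 (edgeR adjusted p = 0.0147). SFRP1 rose from 62.3 ± 11.9 to 453 ± 103 CPM, a log2 fold change of 2.86 ± 0.40 (edgeR adjusted p = 0.00730). For both genes all 3 libraries under flow were above both static ones, as for 14.4% of genes tested, and for SFRP5 all 3 were below, as for 15.7%.

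Without stented static replicate 1 neither call held, with log2 fold changes of 2.67 (edgeR adjusted p = 0.0598) for SFRP1 and 4.23 (adjusted p = 0.0803) for SFRP2. Without stented static replicate 2 they were 3.08 and 6.25. With only these groups fitted the SFRP2 call was lost as well (4.90, adjusted p = 0.0554). SFRP5 fell from 30.01 ± 34.8 to 2.42 ± 1.48 CPM, a log2 fold change of -3.62 ± 0.82 (edgeR adjusted p = 0.0442). That SD exceeds its mean, and without stented static replicate 1, the library with the high adipocyte markers, the log2 fold change was -1.15 (adjusted p = 0.570). The SFRP5 call was also lost with limma-voom (adjusted p = 0.130), and leaving out each library in turn except stented static replicate 2 gave adjusted p = 0.0553 to 0.570.

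SFRP4 and FRZB were not called in this comparison. SFRP4 was at 2.20 ± 1.27 CPM in stented static and 2.85 ± 0.434 CPM in stented high-flow, a log2 fold change of 0.39 with a 95% interval of -0.43 to 1.22. For FRZB it was -1.81 with an interval of -3.55 to -0.07 (edgeR adjusted p = 0.242).

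**Figure D4:**
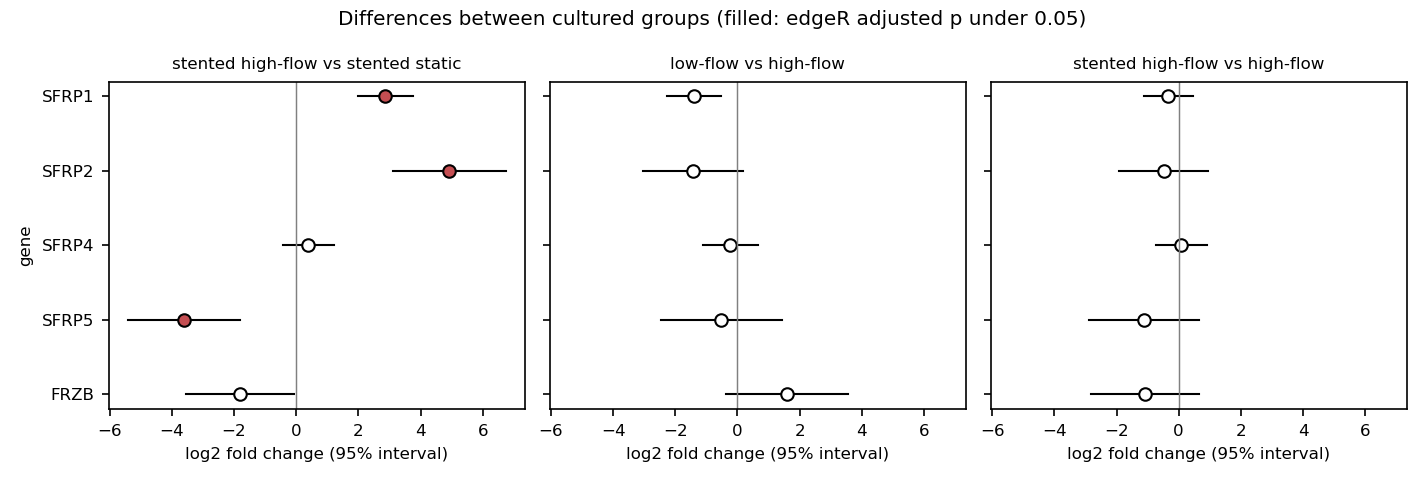
Log2 fold change of each gene between cultured groups (points) with its 95% interval (lines), in 3 comparisons, and filled where edgeR's adjusted p was under 0.05. SFRP1 at 2.86, SFRP2 at 4.92 and SFRP5 at -3.62 are filled for stented high-flow against stented static, and no point is filled in the other 2 comparisons.

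Low-flow vessels were set against high-flow vessels, both without a stent, to compare flow levels. None of the 5 genes was called by edgeR, DESeq2 or limma-voom, while edgeR called 0.104% of all genes tested. An unadjusted p under 0.05 was found for 3 of the 5 in DESeq2 (1450 of 25880 genes). In limma-voom it was found for 2 of the 5 (1368 of 15348 genes). In edgeR it was found for 1 of the 5, beside 1236 of 15348 genes. That gene was SFRP1, at 217 ± 7.39 CPM in low-flow and 569 ± 336 CPM in high-flow, with a log2 fold change of -1.39 ± 0.40 (edgeR adjusted p = 0.481). Both low-flow libraries were below both high-flow ones for SFRP1, as for 22.3% of genes tested. For SFRP2 the log2 fold change was -1.43 with a 95% interval of -3.03 to 0.16, and it was 0.11 without high-flow replicate 1. FRZB had the opposite sign, at 1.59 with an interval of -0.36 to 3.54, and both low-flow libraries were above both high-flow ones, as for 22.9% of genes. SFRP4 was at -0.23 (interval -1.11 to 0.65) and SFRP5 at -0.51 (interval -2.45 to 1.42).

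Stented and unstented vessels under the same flow mark were also set side by side. None of the 5 genes was called by edgeR, DESeq2 or limma-voom, and 0 of them had an unadjusted p under 0.05. EdgeR called 0 of 15348 genes here, a share of 0%, with 467 at an unadjusted p under 0.05, while DESeq2 called 6 and limma-voom 0. The libraries of these groups overlapped for all 5 genes. The 95% intervals of the log2 fold change were -1.10 to 0.45 for SFRP1, -1.91 to 0.93 for SFRP2 and -0.72 to 0.90 for SFRP4. They were wider for SFRP5, at -2.89 to 0.66, and FRZB, at -2.83 to 0.66. The FRZB value of -1.09 changed sign to 1.18 without high-flow replicate 2. The stented and unstented groups come from different deposited count tables, so table and stent cannot be told apart. Both native libraries stand in each of these tables, with 0 values that differ.

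SFRP1 and SFRP2 had similar profiles within culture. Stented static libraries were the 2 lowest of the 9 cultured ones for both genes, and high-flow replicate 1 was the highest for both. Over the 9 cultured libraries their log2 CPM had a Pearson correlation of 0.965, and over the 7 with flow one of 0.903, which describes libraries that share groups. SFRP2 was the gene 7th most like SFRP1 among 8401 over those 9 libraries. It was at rank 43 over the 7 with flow and at rank 1652 over all 11, where the correlation was 0.386. The genes most like SFRP2 over the 9 cultured libraries were HMGN1, CCN2, SULF2, CEP89 and PRSS35, at 0.981 to 0.967. FRZB ran against SFRP1 over the 7 libraries with flow, at -0.893. CCN2, a matricellular growth factor, was at 50.4 to 93.2 CPM in stented static and 269 to 662 CPM in the other cultured libraries. Over all 11 libraries the genes most like SFRP2 were MELTF, ABRACL, DDAH1, CEP89 and IL33, with correlations of 0.982 to 0.970. The alarmin IL33 was at 17.8 to 25.7 CPM in native, 36.9 to 65.1 CPM in stented static and 107.5 to 391 CPM with flow.

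The genes most like SFRP4 over 11 libraries were GATA6, ZBTB47, DHRS3, NR4A3 and TRIM62, with Pearson correlations of 0.980 to 0.977. GATA6, a transcription factor of vascular smooth muscle, was at 159 to 163 CPM in native and 37.9 to 60.8 CPM in culture. NR4A3, an early response nuclear receptor, was at 178 to 245 CPM in native and 2.76 to 10.3 CPM in culture. Over the 9 cultured libraries, where SFRP4 varied little, the nearest were CEP83, KLHL29, GTF2F2, EXOSC8 and CCDC80, at 0.906 to 0.861.

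Other Wnt pathway genes were taken from 7 lists of 119 genes, of which 113 matched a symbol and 95 were tested. Against native, edgeR called 20 of the 95 in stented static, of which 6 were higher and 14 lower. It called 18 in low-flow (5 up, 13 down), 38 in stented high-flow (16 up, 22 down) and 25 in high-flow (7 up, 18 down). These are 21.1%, 18.9%, 40% and 26.3%, beside 12.7%, 12.4%, 24.3% and 14.8% of all genes. The median log2 fold change of the 95 was -0.30 to -0.19 in the 4 comparisons, and that of all genes was at most 0.06 from 0. The low-flow count was 45 with only the groups compared, and the stented high-flow count 25 with a minimum of 10 counts in every library. With 1 library left out the smallest counts were 14 in stented high-flow and 4 in stented static (both without native replicate 2), 6 in high-flow (without its replicate 1) and 2 in low-flow (without its replicate 1).

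The other extracellular antagonists were mostly lower in the groups with flow. Of 8 tested, 4 fell in stented static and 5 in low-flow, while 5 fell and 2 rose in stented high-flow, and 5 fell and 1 rose in high-flow. These are 50%, 62.5%, 87.5% and 75% called, beside 12.7%, 12.4%, 24.3% and 14.8% of all genes. Their median log2 fold change was -3.13 in stented high-flow, where that of all genes was 0.06. WIF1, which binds Wnts directly, was at 939 and 1380 CPM in native and 5.14 to 85.2 CPM in the 9 cultured libraries. Contractile markers, given above, and Schwann cell markers were lower in culture too, the latter at 758 to 802 summed CPM in native and 12.8 to 223 CPM in culture. Cardiomyocyte markers summed to 1267 CPM in native replicate 1 and 8.97 CPM in replicate 2. The part of these cells in the antagonist values was not tested. WIF1 fell by 5.68 ± 0.91 on the log2 scale in stented static (edgeR adjusted p = 0.00350) and by 4.81 ± 0.74 in stented high-flow (adjusted p = 0.00129). It fell by 4.03 ± 0.84 in high-flow (adjusted p = 0.0106) and by 4.79 ± 0.87 in low-flow (adjusted p = 0.00693). The high-flow call of WIF1 was lost without high-flow replicate 1, high-flow replicate 2 or native replicate 2 (edgeR adjusted p = 0.0511 to 0.0770). Its low-flow call was lost without low-flow replicate 1 or 2 (adjusted p = 0.0860 and 0.0628).

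SOST, the LRP5 and LRP6 antagonist sclerostin, was at 60.3 and 69.3 CPM in native and 0.337 to 9.25 CPM in culture. Its log2 fold changes were -3.54 ± 0.69 in stented static, -4.08 ± 0.70 in low-flow, -5.98 ± 0.79 in high-flow and -6.96 ± 0.70 in stented high-flow (edgeR adjusted p = 0.000162 to 0.00901). The stented static call of SOST was lost without native replicate 2 (adjusted p = 0.0558) and the low-flow call without low-flow replicate 1 (0.0615). DKK2, of the Dickkopf family of LRP antagonists, had log2 fold changes of -3.85 to -2.98 and was called in all 4 comparisons, from 4.69 and 7.13 CPM in native to 0.187 to 1.22 CPM. The stented high-flow call of DKK2 held with each library left out. Its other calls were each lost in 3 or 4 of 11 such fits, among them that without native replicate 2 (adjusted p up to 0.189).

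The antagonists that rose, named after their values were seen, were IGFBP4 in stented high-flow and high-flow and DKK3 in stented high-flow. IGFBP4, which also binds insulin-like growth factors, was at 523 and 435 CPM in native. It was at 775 to 1928 CPM in stented high-flow, 1482 and 1080 CPM in high-flow and 413 and 426 CPM in stented static libraries. Its stented high-flow call was lost without either native library, and its high-flow call in 7 of 11 fits with a library left out. DKK3, a divergent Dickkopf relative, was at 182 and 179 CPM in native and 268 to 351 CPM in stented high-flow. It was at 99.1 to 129 CPM in stented static and low-flow libraries. High-flow libraries, at 264.8 and 255.7 CPM, were also above both native ones, although DKK3 was not called there. The call of DKK3 in stented high-flow against native was lost in 8 of 11 such fits. In stented high-flow against stented static, DKK3 rose by 1.31 ± 0.24 (edgeR adjusted p = 0.0188) but did not pass without stented static replicate 1 (adjusted p = 0.156). IGFBP4 rose by 1.68 ± 0.38 there (adjusted p = 0.0448), and that call was lost in 10 of 11 fits with a library left out, all but that without stented high-flow replicate 1. TPBG, a membrane glycoprotein that dampens Wnt signalling, was at 28.9 and 43.1 CPM in native and 12.5 and 10.7 CPM in stented static. Stented high-flow libraries, at 30.4 to 48.3 CPM, overlapped with native, and stented static was called lower than native. TPBG rose by 1.76 ± 0.31 in stented high-flow against stented static (adjusted p = 0.0170), a call lost without either stented static library. With only these 2 groups fitted, the calls of DKK3, IGFBP4 and TPBG were lost (adjusted p = 0.157, 0.193 and 0.110). SOST fell by 3.42 ± 0.66 in that comparison (adjusted p = 0.0248). The SOST call was lost with limma-voom (adjusted p = 0.102), with only these groups fitted (adjusted p = 0.138) and without stented static replicate 2 or 1 of stented high-flow replicates 2 and 3 (up to 0.0911).

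**Figure D5:**
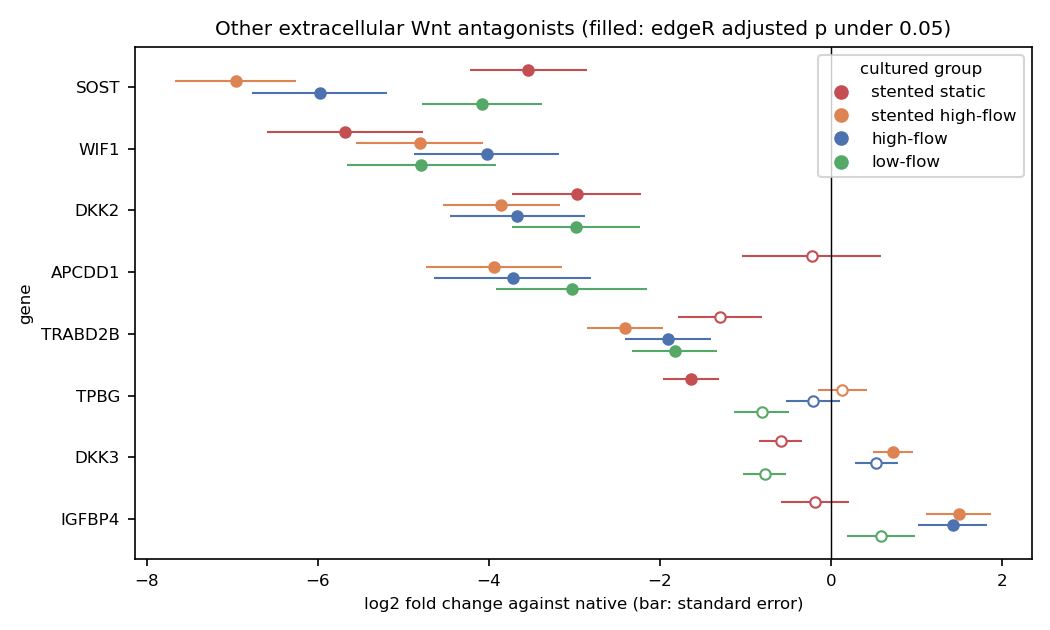
Log2 fold change against native (points) with its standard error (bars) for 8 other extracellular Wnt antagonists in the 4 cultured groups, filled where edgeR's adjusted p was under 0.05. SOST, WIF1 and DKK2 are filled and at -2.98 or lower in all 4 groups. IGFBP4 is filled to the right of 0 in stented high-flow and high-flow, and DKK3 in stented high-flow alone.

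Among 14 tested Wnt ligands and secretion factors, 5 rose and 3 fell in stented high-flow and 2 rose and 2 fell in high-flow. In low-flow 1 rose and 2 fell, and in stented static 1 rose and 1 fell. The called shares were 57.1% in stented high-flow (24.3% of all genes), 28.6% in high-flow (14.8%), 21.4% in low-flow (12.4%) and 14.3% in stented static (12.7%), the last close to that of all genes. WNT5A, a ligand of beta-catenin-independent signalling, was at 8.20 and 8.11 CPM in native and 2.85 and 5.05 CPM in stented static. It was at 54.7, 96.8 and 58.5 CPM in stented high-flow, 92.6 and 16.0 CPM in high-flow and 23.3 and 22.4 CPM in low-flow. Like SFRP1 and SFRP2 it was lowest of the cultured libraries in both stented static ones. It rose by 4.16 ± 0.69 on the log2 scale in stented high-flow against stented static (edgeR adjusted p = 0.0134), a call lost without stented static replicate 1 (adjusted p = 0.106). Its relative WNT5B rose by 2.56 ± 0.40 in the same comparison (edgeR adjusted p = 0.0115), and this call held without any 1 library but not with only these groups fitted (adjusted p = 0.0972). WNT6 fell against native from 3.91 and 3.28 CPM to at most 0.547 CPM in any cultured library. With a library left out, this call of WNT6 held in all 11 fits for stented high-flow, but was lost in 8 for stented static, 2 for low-flow and 1 for high-flow.

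Of 17 tested receptors and co-receptors, 3 rose and 3 fell in stented high-flow, 2 rose and 2 fell in both unstented groups, and 1 rose and 1 fell in stented static. The called shares were 35.3% in stented high-flow (24.3% of all genes), 23.5% in high-flow (14.8%) and in low-flow (12.4%), and 11.8% in stented static, under the 12.7% of all genes. PTK7, a co-receptor of planar cell polarity signalling, was at 18.5 and 15.4 CPM in native and 134 to 581 CPM in culture. It rose by 2.99 ± 0.43 in stented static, 3.89 ± 0.45 in low-flow, 4.37 ± 0.46 in high-flow and 4.54 ± 0.45 in stented high-flow (edgeR adjusted p = 0.000150 to 0.00198). Those calls held when any 1 library was left out. ROR1, the WNT5A receptor, went the other way, from 57.2 and 46.6 CPM in native to 1.94 to 15.8 CPM in culture. ROR1 fell by 3.54 ± 0.54 in stented static, 3.00 ± 0.53 in high-flow and 3.04 ± 0.46 in stented high-flow (edgeR adjusted p = 0.00113 to 0.00474). In low-flow it fell by 1.76 ± 0.50 (adjusted p = 0.0430), a call lost in 5 of 11 fits with a library left out. The Frizzled receptor FZD1 rose by 2.77 ± 0.42 in stented high-flow (adjusted p = 0.00127), from 42.8 ± 4.67 to 292 ± 72.9 CPM.

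Genes that beta-catenin is known to activate did not move one way. Of 15 tested, 5 rose and 4 fell in stented high-flow, 1 rose and 4 fell in high-flow, 1 rose and 3 fell in low-flow, and 2 rose and 4 fell in stented static. These are 60%, 33.3%, 26.7% and 40% called, beside 24.3%, 14.8%, 12.4% and 12.7% of all genes. The matricellular protein CCN4 rose by 3.99 ± 0.64 in stented high-flow (edgeR adjusted p = 0.00158) and 4.30 ± 0.67 in high-flow (adjusted p = 0.00258), from 4.10 and 3.91 CPM in native to at least 31.2 CPM. The feedback inhibitor NKD1 was at 65.5 and 69.7 CPM in native and 11.9 to 30.7 CPM in culture, and it fell by 1.79 ± 0.39 in stented high-flow (adjusted p = 0.00798). Without native replicate 2 the NKD1 call did not hold (adjusted p = 0.0540). AXIN2, a widely used readout of beta-catenin activity, was at 19.0 and 13.1 CPM in native and 2.87 to 13.2 CPM in culture. AXIN2 fell by 1.74 ± 0.53 in high-flow (edgeR adjusted p = 0.0485), a call lost in 7 of 11 fits with a library left out.

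The list of R-spondins, their receptors and ligases had 5 tested genes. RSPO2 and ZNRF3 fell in stented high-flow, and these and LGR4 in high-flow, which is 40% and 60% of the list beside 24.3% and 14.8% of all genes. RSPO2 is a secreted protein that strengthens Wnt signalling and LGR4 a receptor for it, whereas ZNRF3 is a ligase that removes Frizzled receptors and so weakens it. RSPO2 fell by 5.10 ± 1.09 in stented high-flow (edgeR adjusted p = 0.00711), from 88 and 117 counts in native to 0, 1 and 9. In high-flow it had 3 counts over both libraries, and native CPM was 81.7 times as high, with a 95% counting interval of 27.6 to 399. Such intervals cover counting error only. Of 31 intracellular components, 5 were called in stented static, 2 in low-flow, 1 in high-flow and 4 in stented high-flow. These are 16.1%, 6.45%, 3.23% and 12.9%, beside 12.7%, 12.4%, 14.8% and 24.3% of all genes.

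Of the procollagen C-proteinases and their enhancers, on which SFRP2 is known to act, 5 were tested. The called shares were 20% in stented static (12.7% of all genes), 40% in stented high-flow (24.3%), 40% in high-flow (14.8%) and 0% in low-flow (12.4%). BMP1 rose by 1.84 ± 0.38 on the log2 scale in stented high-flow (edgeR adjusted p = 0.00610), from 163 and 115 CPM in native to 311, 463 and 715 CPM. In high-flow it rose by 1.77 ± 0.40 (adjusted p = 0.0146). Without native replicate 2 neither call of BMP1 held, and the high-flow call also failed without native replicate 1 or high-flow replicate 1 (adjusted p up to 0.126). Its relative TLL1 fell by 3.04 ± 0.60 in stented static (edgeR adjusted p = 0.00973). TLL1 also fell by 2.50 ± 0.59 in high-flow (adjusted p = 0.0171) and by 1.59 ± 0.50 in stented high-flow (adjusted p = 0.0392). The stented static call of TLL1 needed native replicate 2 and stented static replicate 1. Of 11 fits with a library left out, its high-flow call was lost in 3 and its stented high-flow call in 6. The enhancers PCOLCE and PCOLCE2 did not pass in any of the 4 comparisons with native, at -0.62 to 0.65 and 0.28 to 1.13.

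Between cultured groups, 9 of the 95 pathway genes were called in stented high-flow against stented static (6 higher, 3 lower), a share of 9.47% beside 2.85% of all genes. The count was 2 without stented static replicate 1 and 13 without stented high-flow replicate 1. It was 24 with DESeq2, 20 with no filter and 1 with only the groups compared. In low-flow against high-flow edgeR called 0 of 95, with 12 at an unadjusted p under 0.05 (1236 of 15348 genes), and DESeq2 called 3. In stented high-flow against high-flow edgeR called 0, with 4 at an unadjusted p under 0.05 (467 of 15348 genes), and DESeq2 called 0.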

How the data were processed

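RNA of 11 pig coronary artery libraries was measured by paired-end sequencing. The deposited values are gene counts in 2 tables, and the deposited lists of changed genes are log2 fold changes. Trimmomatic, FastQC, DESeq2 and Sscrofa11.1 are named in the submitters' processing notes. No source used here names the aligner, the counter or the annotation. Symbols came from a table of Ensembl IDs (14857 of 25880 matched), and coordinates from RefSeq by symbol. No transcript lengths were used, so levels are not compared between genes.

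Counts were fitted in R 4.3.3 with edgeR 4.0.16 (filterByExpr, TMM, quasi-likelihood F-test, 1 fit of 5 groups, Benjamini-Hochberg adjustment over 15348 genes, threshold 0.05). A prior count of 2 was added for log2 CPM. The method was tested on simulated data. Members and lists were chosen with earlier results of these data known. Pathway genes were named from up to 3 called genes per list with the largest change and groups that do not overlap. Not all of those are given. The antagonists IGFBP4, DKK3 and TRABD2B were added after their values were seen. Genes of like pattern are the 5 with the highest Pearson correlation among those with a mean log2 CPM of at least 3. Alternatives were DESeq2 1.42.0, limma-voom 3.58.1, RLE size factors, no filter on counts, a minimum of 10 counts per library, a replicate block, only the groups compared and leaving out each library.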

Additional observations from a re-analysis of the deposited data

Results flagged for a closer look

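Stented high-flow and stented static differed in a direct test for SFRP1 (log2 fold change 2.86), SFRP2 (4.92) and SFRP5 (-3.62). Flow, presence of Y-linked transcripts and the label suffix d cannot be told apart in this comparison. Without stented static replicate 1 none of these calls held, and the SFRP5 value was -1.15. The SFRP5 call was lost in every fit with a library left out except that without stented static replicate 2. Group sizes of 2 or 3 did not allow a search for outlying libraries.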

How the results depend on the processing

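In stented high-flow against stented static, the SFRP5 call was lost with limma-voom (-3.12, adjusted p = 0.130) and with only the groups compared (-3.62, adjusted p = 0.176), where that of SFRP2 was lost too (4.90, adjusted p = 0.0554). With the replicate block SFRP5 was at -3.75 (adjusted p = 0.134). The deviations of same-numbered libraries from their group means had correlations of -0.329 to 0.183 over 20 pairs, with 6 over 0.1. In groups of 2 libraries the deviations mirror each other, so many of these values repeat. Whether the numbers pair the samples therefore cannot be decided. The block gave 2489 called genes in stented high-flow against native (3737 without it) and 185 in stented high-flow against stented static (438 without it). With the block the pathway counts were 24 in stented high-flow (38 without it) and 10 in low-flow (18) against native, and 2 in stented high-flow against stented static (9), where TPBG, DKK3, SOST and IGFBP4 lost their calls. For that last comparison DESeq2 called 1350 genes, no filter 1003 and only the groups compared 32. DESeq2 called 3052 genes in stented static (1955 in edgeR) and 2889 in low-flow (1904) against native, and fitting only the groups compared gave 4884 in low-flow. In low-flow against high-flow, where edgeR called 16, DESeq2 called 105, no filter gave 54 and a minimum of 10 counts per library gave 2. DESeq2 called 6 genes in stented high-flow against high-flow.

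With each library left out in turn, called genes against native ranged from 514 to 2474 in stented static, 1542 to 4128 in stented high-flow, 752 to 2800 in high-flow and 361 to 2307 in low-flow. Between cultured groups they ranged from 95 to 784 (stented high-flow against stented static), 5 to 20 (low-flow against high-flow) and 0 to 1 (stented high-flow against high-flow). SFRP2 against native ranged from 1.92 to 4.03 in stented static, 7.70 to 8.94 in stented high-flow, 7.12 to 9.44 in high-flow and 6.75 to 7.99 in low-flow. SFRP4 ranged from -6.25 to -4.98, -5.32 to -4.86, -5.39 to -4.94 and -5.64 to -5.18 in the same order. In stented high-flow against stented static the ranges were 2.67 to 3.08 for SFRP1, 4.23 to 6.25 for SFRP2 and -4.47 to -1.15 for SFRP5. The causes of these changes were not tested. Of 84 results on named pathway genes, chosen for this check after seeing the data, 54 kept their call under every other fit and 20 with every library left out, and 0 reversed. SFRP2 in native rests on 15 and 39 counts, which limits its fold changes.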
